A study of Mus musculus with 9 samples.

Results

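Irak1, Irak2, Traf6, Irf5, Notch1, Numb, Smad4 and Siah2 are mouse genes reported as targets of the microRNA miR-146a-5p, which has been linked to ApoE in macrophages. The 8 genes were chosen because they are reported targets, at a time when earlier results of these data were known. They are 8 of the 55536 genes in the count table and of the 13815 genes that passed the filter on low counts, and all 8 passed it.

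Gene expression was measured by RNA-seq in bone marrow-derived macrophages (BMDM) of wild-type mice, cells grown from the marrow of male mice aged 6 to 12 weeks with M-CSF, the macrophage growth factor, at 25 ng/mL over 6 days. For 18 hours the cells received exosomes, small vesicles that cells release, from ApoE-deficient BMDM (EKO exosomes) at 2e+09 particles/mL, exosomes from wild-type BMDM (WT exosomes) at the same dose, or PBS, the vehicle. Each group has 3 libraries, described as biological replicates. Whether they came from separate mice or received separate exosome preparations is not stated in the sources used here, so a p-value here covers the variation among the libraries, which may be technical in part. The recipient cells carried the wild-type genotype in all 3 groups, and only the donors of the EKO exosomes lacked ApoE. Apoe itself, the gene of the secreted lipid carrier, had 18959 ± 376 CPM (library-size-scaled counts with TMM factors, mean ± SD, n = 3) with EKO exosomes, 19766 ± 364 CPM with WT exosomes and 19326 ± 654 CPM with PBS.

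MicroRNAs are short RNAs that guide an Argonaute protein to messenger RNAs, mostly by pairing of their seed (bases 2 to 8) with the 3′ UTR, and that lower the stability or translation of those messages. miR-146a is induced by NF-kB in macrophages and is known as a brake on Toll-like and interleukin-1 receptor signalling, in which MYD88 recruits the IRAK kinases and the ubiquitin ligase TRAF6. The other genes act elsewhere: NOTCH1 is a cell-surface receptor that NUMB antagonises, SMAD4 is the shared partner of the TGF-beta and BMP SMADs, SIAH2 is a ubiquitin ligase that acts on the oxygen sensors of the hypoxia response, and IRF5 is a transcription factor of inflammatory cytokine genes downstream of Toll-like receptors.

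The mature sequences from RefSeq (GRCm38.p6) are shown because the seed defines the search for sites in the 8 genes. Capitals mark the seed. The gene of miR-146a-5p lies on the minus strand, with the mature sequence at chr11:43374435-43374456, and that of miR-146b-5p on the plus strand, at chr19:46342790-46342811. Both are 22 bases long and share the seed, no other mature microRNA in the table had it, and they differ by the substitutions G18A and U21C (the base of miR-146a-5p, its position from the 5′ end, then the base of miR-146b-5p).
mmu-miR-146a-5p: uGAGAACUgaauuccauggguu
mmu-miR-146b-5p: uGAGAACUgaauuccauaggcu

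The full match to the seed with an A opposite base 1 is AGTTCTCA in DNA letters (called an 8mer), and the shorter matches are AGTTCTC (7mer-m8) and GTTCTCA (7mer-A1). They were searched on the message strand only, in the longest annotated 3′ UTR of each gene (GENCODE M21, GRCm38). A 7mer inside an 8mer was not counted again, and the 6 bases common to all 3, GTTCTC, are called a 6mer where they stand alone. An 8mer was present in 7 of the 8 genes, every one except Irf5, whose 534-base UTR held none of the 3 matches. Among the 11799 tested genes with an annotated 3′ UTR, 537 (4.55%) held an 8mer, and among the 2680 with a UTR of 900 to 1700 bases, the range of most of these genes, 102 (3.81%) did. Since the genes were chosen as reported targets, their share says nothing beyond that choice. The 8mers of 6 of the genes are shown in 30-base windows in the direction of the message, with the match in capitals, because these are the sequences to which the reported targeting refers. The Traf6 windows come from chr2:101697940-101697969, chr2:101698004-101698033, chr2:101698816-101698845 and chr2:101701340-101701369 on the plus strand, and the Irak2 window from chr6:113694247-113694276, also on the plus strand. The others lie on the minus strand. Those of Irak1 come from chrX:74015390-74015419 and chrX:74015374-74015403, that of Notch1 from chr2:26459260-26459289, that of Numb from chr12:83794810-83794839 and that of Siah2 from chr3:58675206-58675235.
Irak1 first: cctcagactcagaggtcaaAGTTCTCAtgc
Irak1 second: caaagttctcatgcttggaAGTTCTCAtag
Irak2: tacagccggtgtctccgcaAGTTCTCAagt
Traf6 first: agttaccgctctggtgttgAGTTCTCAttt
Traf6 second: atgatccctggaaggcttaAGTTCTCAagt
Traf6 next: atacagtactttggagtctAGTTCTCAggg
Traf6 last: cccgggactttgctactgcAGTTCTCAaac
Notch1: tgttccaagaaaataaactAGTTCTCAgag
Numb: cacctagaatattttaaatAGTTCTCAata
Siah2: aggcgctcagtgagttgagAGTTCTCAcag

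The sites differ in number and place. Traf6 had 4 8mers in a UTR of 4170 bases, and no other tested gene had 4 or more. Irak1 had 2, at bases 40 to 47 and 56 to 63 after the stop codon, and a 7mer-A1 at bases 147 to 153 of its 1526-base UTR. The 2 8mers lie so close that the second window also holds the whole first match, in lower case. Irak2 had an 8mer at bases 486 to 493, a 7mer-m8 at 353 to 359 and a 7mer-A1 at 869 to 875. The remaining 4 genes had 1 8mer each, at bases 261 to 268 of 1628 in Notch1, 619 to 626 of 1405 in Numb, 356 to 363 of 1249 in Smad4 and 670 to 677 of 948 in Siah2. In Irak1, 5 of 7 annotated UTRs carried an 8mer, in Irak2 2 of 3 and in Smad4 1 of 2. A match is a string in the annotation and no measure of binding.

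**Figure D1:**
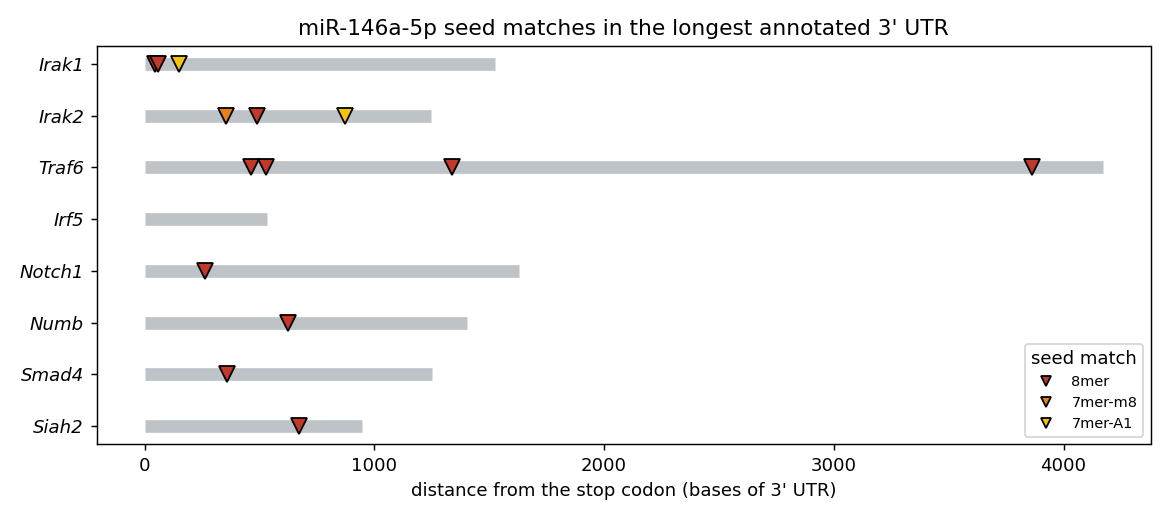
Seed matches of miR-146a-5p in the longest annotated 3′ UTR of each gene, drawn to scale in bases from the stop codon. Grey bars are UTRs and triangles are matches, coloured by type. Traf6 has the longest UTR, 4170 bases, with 4 8mers, and the 534-base UTR of Irf5 has no match.

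The libraries held 28581306 to 35929596 counts and 17150 to 18680 detected genes each. The label of the cells was checked against 7 macrophage markers, which were all above 1 CPM and summed to 20311 to 21119 CPM with EKO exosomes, 20361 to 21012 CPM with WT exosomes and 22226 to 23390 CPM with PBS. Of these 7 markers, 5 fell with EKO exosomes and 5 fell and 1 rose with WT exosomes, relative to PBS. The 9 neutrophil markers summed to 11.3 to 17.7 CPM with EKO exosomes, 15.8 to 26.7 CPM with WT exosomes and 20.1 to 31.0 CPM with PBS, with 5 of them under 1 CPM on average. The 4 stromal markers summed to 4.95 to 13.2 CPM with EKO exosomes, 10.4 to 16.9 CPM with WT exosomes and 6.61 to 36.8 CPM with PBS. Markers of dendritic, B and T cells summed to at most 0.847, 0.339 and 0.295 CPM in any library. The part that these shifts have in the results below was not tested. In a principal component analysis 3 libraries stood apart. Replicate 3 of WT exosomes lay at 57.5 on component 1 (15.2% of the variance), against -16.8 to 3.43 for the others. On component 2 (15.1%), replicate 2 of EKO exosomes lay at 38.0 and replicate 2 of WT exosomes at -45.4, against -7.07 to 17.8 for the others.

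The 8 genes spanned a wide range of levels. Per kilobase of exon, which makes genes comparable, the level in PBS cells was 116 ± 3.67 CPM per kb for Irf5 and 3.21 CPM per kb for Siah2, which placed them at the 98.2 and 44.6 percentiles of all tested genes. Between them came Irak1 at 37.8, Numb at 29.7, Irak2 at 25.1, Smad4 at 20.9, Notch1 at 9.05 and Traf6 at 6.73 CPM per kb. This order was the same in all 3 groups, and no neighbours in it overlapped across the libraries of a group. Siah2 had 154 to 377 counts per library and Irf5 9154 to 12298. The coefficient of variation of Siah2 between libraries was 23.5% with EKO exosomes, 30.1% with WT exosomes and 10.7% with PBS, and its SE was the largest of the 8.

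**Figure D2:**
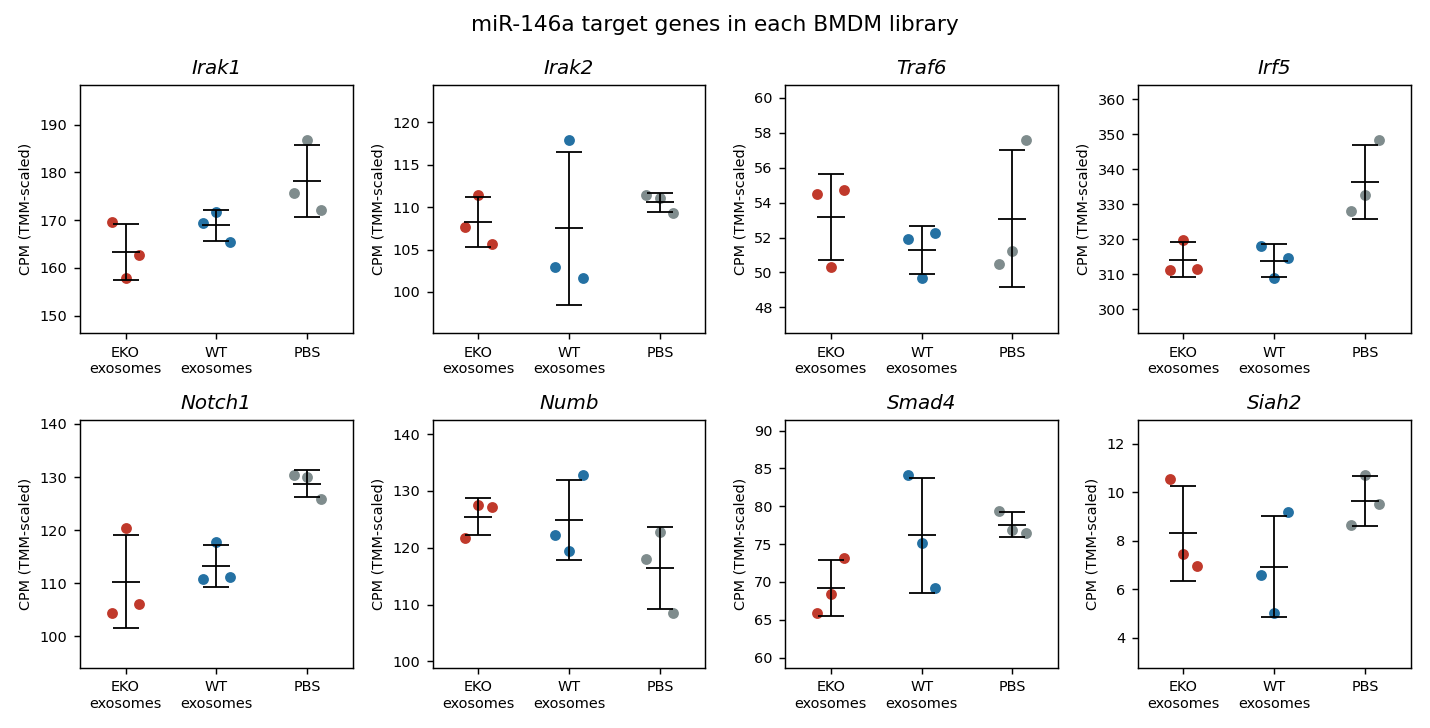
Level of each gene in each library, in CPM scaled with TMM factors. Points are libraries, coloured by group, and bars are the mean ± SD over 3 libraries. The vertical axes differ between panels and do not start at 0. For Notch1 and Irf5, the 6 libraries of exosome-treated cells all lie below the 3 PBS libraries, and for Traf6 and Irak2 the groups overlap.

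Notch1 was lower in macrophages that received exosomes of either kind. It had 104, 120.4 and 106 CPM with EKO exosomes, 111, 118 and 111 CPM with WT exosomes and 130.4, 130.1 and 126 CPM with PBS. Neither exosome group overlapped with PBS, and the exosome groups overlapped with each other. Notch1 fell by 14.4% with EKO exosomes, a log2 fold change of -0.22 ± 0.054 (SE; 95% interval -0.33 to -0.12; edgeR adjusted p = 0.0076). It fell by 12.1% with WT exosomes, a log2 fold change of -0.19 ± 0.054 (interval -0.29 to -0.076; adjusted p = 0.0387). With the exosome groups pooled against PBS the log2 fold change was -0.20 ± 0.046 (adjusted p = 0.0035), where 5.31% of all genes passed. In bulk libraries such as these, fewer cells that express a gene and less of its RNA per cell cannot be told apart.

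Notch1 was the only one of the 8 genes to pass the threshold, an adjusted p under 0.05, in either comparison with PBS. Over all genes tested, 4.23% passed with EKO exosomes and 4.11% with WT exosomes, and 2.41% and 2.18% passed with a lower level, against 1.82% and 1.93% with a higher one. By p, Notch1 ranked 335 of 13815 genes for EKO exosomes and 517 for WT exosomes. The call for EKO exosomes ended without their replicate 1 (log2 fold change -0.19, adjusted p = 0.0932) or replicate 3 (-0.20, adjusted p = 0.0707). The call for WT exosomes ended without PBS replicate 1 (adjusted p = 0.133) or replicate 2 (0.132), or without WT exosome replicate 1 (0.143) or replicate 3 (0.152). Without replicate 2 of EKO exosomes the EKO call held (-0.29, adjusted p = 0.0016), as did the WT call without replicate 2 of WT exosomes (-0.21, adjusted p = 0.0417). The call for the pooled exosome groups held in all 15 alternatives, with adjusted p between 0.00079 and 0.0331. Exons of Notch1 overlap those of 0610009E02Rik and Gm13568 on the opposite strand over 9.76% of their length. Those genes had at most 1.03 CPM.

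Numb, the antagonist of Notch receptors, had 122, 128 and 127 CPM with EKO exosomes, 122, 119 and 133 CPM with WT exosomes and 118, 123 and 109 CPM with PBS. The groups overlapped. Its log2 fold change was 0.11 ± 0.053 with EKO exosomes (adjusted p = 0.378) and 0.10 ± 0.053 with WT exosomes (adjusted p = 0.411), and it was the only one of the 8 genes with a value above 0 in both comparisons with PBS.

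Irak1 and Irak2 did not pass the test. IRAK1 is the kinase released from the receptor complex to act with TRAF6. Irak1 had 169.6, 158 and 163 CPM with EKO exosomes, 169, 172 and 166 CPM with WT exosomes and 176, 187 and 172 CPM with PBS. Each exosome group lay below PBS with no overlap, by a margin of under 1 CPM for WT exosomes. The log2 fold change was -0.12 ± 0.045 with EKO exosomes (interval -0.22 to -0.034; adjusted p = 0.133) and -0.077 ± 0.045 with WT exosomes (adjusted p = 0.479). Irak2, whose product sustains the later phase of the response, had 108, 111 and 106 CPM with EKO exosomes, 103, 118 and 102 CPM with WT exosomes and 111, 111 and 109 CPM with PBS. The groups overlapped, and the log2 fold change was -0.031 with EKO exosomes (adjusted p = 0.915) and -0.040 with WT exosomes (adjusted p = 0.849).

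Traf6, the gene with 4 8mers, had 54.5, 50.3 and 54.7 CPM with EKO exosomes, 51.9, 49.7 and 52.2 CPM with WT exosomes and 50.5, 51.2 and 57.6 CPM with PBS. All 3 groups overlapped. The log2 fold change was 0.0025 ± 0.074 with EKO exosomes (interval -0.15 to 0.15; adjusted p = 0.995) and -0.051 ± 0.074 with WT exosomes (interval -0.20 to 0.10; adjusted p = 0.862). The interval for EKO exosomes spans a difference of -9.74% to 11.2% in Traf6 message.

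Irf5 had 311, 319.9 and 311 CPM with EKO exosomes, 318, 309 and 314 CPM with WT exosomes and 328, 333 and 348 CPM with PBS. Each exosome group lay below PBS with no overlap, and the exosome groups averaged 314 ± 4.96 and 314 ± 4.63 CPM against 336 ± 10.7 CPM with PBS. The log2 fold change was -0.10 ± 0.036 with EKO exosomes (adjusted p = 0.138) and -0.10 ± 0.036 with WT exosomes (adjusted p = 0.123). Pooled, it was -0.10 ± 0.031, with an adjusted p of 0.0508 that lay next to the threshold and passed it in 5 of 15 alternatives, over which it ranged up to 0.277. Irf5 is the gene without a seed match. Its exons overlap those of Tnpo3 on the opposite strand over 14.1% of their length, and Tnpo3 had 84.9 to 97.4 CPM and a log2 fold change of 0.013 with EKO exosomes.

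Smad4 had 66.0, 68.4 and 73.2 CPM with EKO exosomes, 84.2, 75.2 and 69.1 CPM with WT exosomes and 79.4, 76.9 and 76.4 CPM with PBS. The EKO exosome libraries lay below PBS with no overlap, and the WT exosome libraries spread over both. The log2 fold change was -0.16 ± 0.067 with EKO exosomes (interval -0.30 to -0.028; adjusted p = 0.227) and -0.026 ± 0.067 with WT exosomes (adjusted p = 0.932). Siah2, the least abundant of the 8, had 10.5, 7.44 and 6.95 CPM with EKO exosomes, 6.61, 5.04 and 9.17 CPM with WT exosomes and 8.67, 10.7 and 9.52 CPM with PBS. All groups overlapped. Its log2 fold change was -0.21 ± 0.20 with EKO exosomes (interval -0.61 to 0.19; adjusted p = 0.774) and -0.47 ± 0.20 with WT exosomes (interval -0.88 to -0.069; adjusted p = 0.236).

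As a group, 6 of the 8 genes had a log2 fold change below 0 with EKO exosomes, beside 50.2% of all genes. With WT exosomes 7 of 8 did, beside 50.8% of all genes. The 8 genes had a median log2 fold change of -0.11 with EKO exosomes and -0.064 with WT exosomes. Over all genes tested the medians were -0.00052 and -0.0033. The median size of a log2 fold change over all genes, whatever its sign, was 0.118 and 0.12. The libraries did not overlap with PBS for 4 of the 8 genes with EKO exosomes (Irak1, Notch1, Smad4 and Irf5) and for 3 with WT exosomes (Irak1, Notch1 and Irf5), all lower. Over all genes tested, the libraries did not overlap for 18.3% with EKO exosomes and for 17.5% with WT exosomes, with 9.24% and 8.87% lower. At an unadjusted p under 0.05 the count was 5 of 8 with EKO exosomes and 3 of 8 with WT exosomes, beside 13.1% of all genes with EKO exosomes and 14% with WT exosomes. These comparisons share the PBS libraries, and the 8 genes were chosen with earlier results of these data known.

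**Figure D3:**
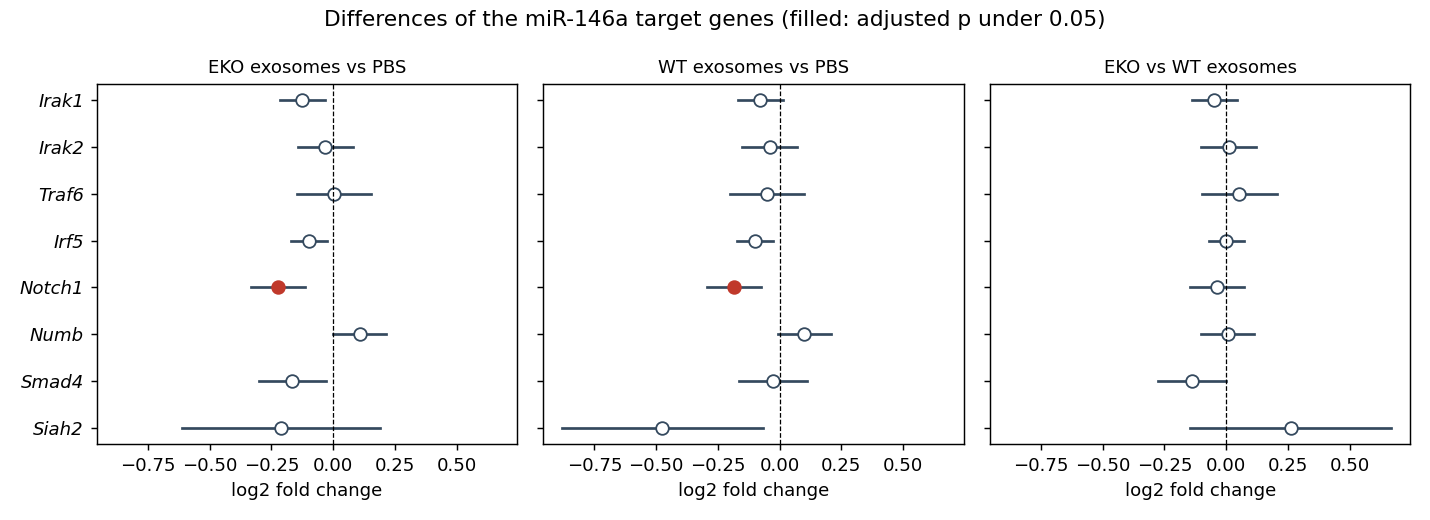
Log2 fold change of each gene in the comparisons of EKO exosomes with PBS, WT exosomes with PBS and EKO with WT exosomes. Points are edgeR estimates, bars are 95% intervals, and filled points have an adjusted p under 0.05. Only Notch1, at -0.22 and -0.19, is filled, in both comparisons with PBS, and the interval of Siah2 is the widest.

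Between the exosomes of ApoE-deficient and wild-type donors, which is the comparison that bears on donor genotype, none of the 8 genes passed edgeR's test, and none did by DESeq2 or limma-voom. Over all genes, 0.695% passed. At an unadjusted p under 0.05, which 8.15% of all genes reached, the count was 1, Smad4, which averaged 69.2 ± 3.69 CPM with EKO exosomes and 76.1 ± 7.55 CPM with WT exosomes. Its log2 fold change was -0.14 ± 0.067 (adjusted p = 0.597). The log2 fold changes of the others were -0.047 for Irak1, 0.0096 for Irak2, 0.053 for Traf6, 0.0012 for Irf5, -0.039 for Notch1, 0.0071 for Numb and 0.26 for Siah2, all with adjusted p of 0.816 or more. No gene of the 8 separated the exosome groups without overlap, against 14% of all genes.

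The intervals set the size of difference between the exosomes that the data allow. They run from -4.82% to 5.25% for Irf5, from -9.14% to 3.07% for Irak1, from -9.74% to 5.01% for Notch1 and from -6.70% to 8.24% for Numb. For Irak2 the interval is -6.85% to 8.79%, for Traf6 -6.53% to 15.2% and for Smad4 -17.4% to -0.131%. The Smad4 interval does not include equal levels, but its edgeR adjusted p was 0.597. The interval of Siah2, -9.54% to 59.0%, leaves room for a far larger difference. A missed threshold does not show that the preparations act alike on these genes.

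The microRNA itself was hardly measured. The kit makes libraries from messenger RNA, so mature microRNAs are not captured. The locus of miR-146a had 0 to 11 counts per library, 39 in all 9, and that of miR-146b had 0 in every library. The level of miR-146a-5p in the recipient cells or the exosomes therefore has no value here.

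Genes with a seed match were also counted across the whole table. With EKO exosomes, 22 of the 537 genes with an 8mer were higher and 18 lower (7.45% called), against 135 higher and 197 lower of the 7826 genes with none of these matches and no 6mer (4.24%). With WT exosomes the counts were 15 higher and 15 lower (5.59%) with an 8mer and 161 higher and 172 lower (4.26%) with none. The 1530 genes with a 6mer as their best match were called in 6.54% with EKO exosomes and in 5.56% with WT exosomes. For a 7mer-m8 as the best match (942 genes) the shares were 6.58% with EKO exosomes and 7.22% with WT exosomes. For a 7mer-A1 (964 genes) they were 4.56% and 4.25%. The median log2 fold change of genes with an 8mer was -0.0049 with EKO exosomes and -0.0078 with WT exosomes. That of genes with no match and no 6mer was 0.0023 with EKO exosomes and 0.0022 with WT exosomes. Between the exosomes, 2 genes with an 8mer were higher and 2 lower (0.745%), against 0.779% of genes with none, with medians of 0.0071 and -0.0041. Genes with an 8mer had longer UTRs, with a median of 2705 bases against 1174 over all genes with a UTR, so these groups differ in more than the seed.

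**Figure D4:**
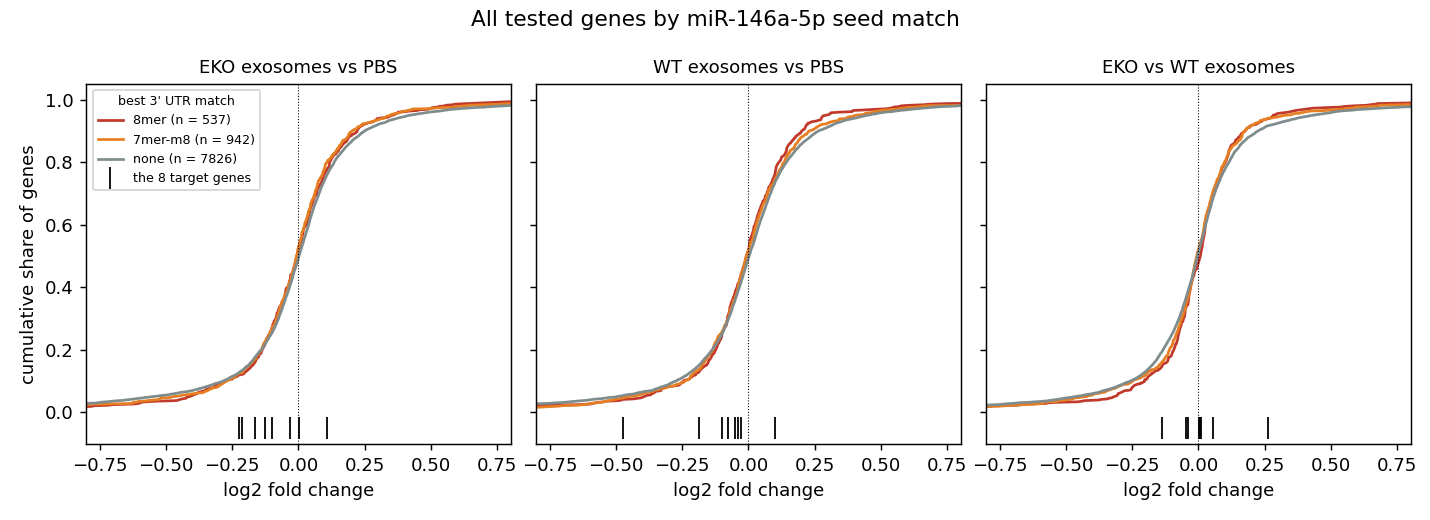
Cumulative share of tested genes by log2 fold change, by best match in the 3′ UTR, in each of the 3 comparisons. Curves are for genes with an 8mer (537), a 7mer-m8 (942) or no match and no 6mer (7826). Ticks under the curves mark the 8 target genes, and the axis is limited to values between -0.8 and 0.8. The curves lie close together, with medians between -0.0078 and 0.0071.

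Around the 8 genes stand the pathways they belong to. Of 123 pathway genes in 8 lists, 117 were tested. The lists were chosen with earlier results of these data known, so their shares, here and below, are no independent evidence. With EKO exosomes 2 of these were higher and 13 lower (12.8% called, beside 4.23% of all genes), and with WT exosomes 3 were higher and 9 lower (10.3%, beside 4.11%). DESeq2 called 18 with EKO exosomes and 15 with WT exosomes, and limma-voom called 16 with EKO exosomes and 10 with WT exosomes.

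Of the 22 other genes of Toll-like and interleukin-1 receptor signalling, none passed edgeR's test with EKO exosomes, none passed with DESeq2 or limma-voom, and 5 had an unadjusted p under 0.05. Over all genes, 4.23% passed edgeR's test and 13.1% had such an unadjusted p. The median log2 fold change of the list was 0.025. With WT exosomes, 1 of 22 fell (4.55%, beside 4.11% of all genes), Nfkb1, the gene of an NF-kB subunit. With WT exosomes, DESeq2 called 3 of the list and limma-voom 1. Nfkb1 had 159.8 ± 10.6 CPM with EKO exosomes, 157 ± 2.59 CPM with WT exosomes and 176 ± 5.17 CPM with PBS (log2 fold change for WT exosomes -0.17 ± 0.047, adjusted p = 0.0323). Its call ended without PBS replicates 1 or 3 or any one of the WT exosome libraries, with adjusted p up to 0.151. Myd88, the adaptor of these receptors, had 78.2 ± 3.17 CPM with EKO exosomes, 73.9 ± 1.09 CPM with WT exosomes and 84.4 ± 1.56 CPM with PBS, and did not pass with EKO exosomes (adjusted p = 0.44) or WT exosomes (0.0594). Sqstm1, a scaffold that binds TRAF6, had log2 fold changes of 0.068 with EKO exosomes and -0.046 with WT exosomes. Tifa, an activator of TRAF6, had -0.090 with EKO exosomes and 0.10 with WT exosomes, and neither gene was called.

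Part of the genes that NF-kB induces were lower. Of 15 tested, 6 fell and none rose with EKO exosomes, with a median log2 fold change of -0.32, and 4 fell and none rose with WT exosomes, with a median of -0.18. The shares called were 40% and 26.7%, beside 4.23% and 4.11% of all genes. Icam1, a leukocyte adhesion molecule, had 61.3 ± 1.84 CPM with EKO exosomes, 70.1 ± 3.09 CPM with WT exosomes and 81.9 ± 2.46 CPM with PBS (log2 fold change -0.42 with EKO exosomes, adjusted p = 1.43e-05, and -0.22 with WT exosomes, adjusted p = 0.0296). Nfkbiz, a nuclear cofactor of NF-kB, had 21.7 ± 0.698 CPM with EKO exosomes, 20.3 ± 4.30 CPM with WT exosomes and 32.0 ± 1.33 CPM with PBS (-0.56 with EKO exosomes, adjusted p = 0.00145, and -0.66 with WT exosomes, adjusted p = 0.000225). Nfkbie, an inhibitor of NF-kB, had 20.7 ± 0.394 CPM with EKO exosomes, 20.7 ± 1.27 CPM with WT exosomes and 28.7 ± 1.80 CPM with PBS (-0.47 with EKO exosomes, adjusted p = 0.00328, and -0.47 with WT exosomes, adjusted p = 0.00353). Il1b, the gene of a precursor of an inflammatory cytokine, was low, at 1.00 ± 0.359 CPM with EKO exosomes, 2.53 ± 0.325 CPM with WT exosomes and 3.80 ± 0.711 CPM with PBS. It fell with EKO exosomes (-1.91 ± 0.36, adjusted p = 0.000498) but did not pass with WT exosomes (-0.59 ± 0.34, adjusted p = 0.484). Bcl3, another cofactor, fell with EKO exosomes (-0.38) and with WT exosomes (-0.42), and Nfkbia, the inhibitor that NF-kB itself induces, fell with EKO exosomes (-0.28). The calls of Icam1, Nfkbiz, Nfkbie and Il1b with EKO exosomes, and of Nfkbiz and Nfkbie with WT exosomes, held in all 13 alternatives. That of Icam1 with WT exosomes ended without any one of 4 libraries (adjusted p up to 0.137). The count of the list was 4 to 6 over the alternatives with EKO exosomes and 2 to 4 with WT exosomes, 2 of them without replicate 3 of WT exosomes.

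Among the other genes of the Notch pathway, 9.09% passed the test with either kind of exosome, beside 4.23% of all genes with EKO exosomes and 4.11% with WT exosomes. With EKO exosomes, 1 of 22 tested rose and 1 fell, with a median log2 fold change of -0.075, and with WT exosomes 2 rose and none fell, with a median of -0.053. Fbxw7, the ubiquitin ligase subunit that marks the NOTCH intracellular domain for degradation, rose in both, with 34.6 ± 1.33 CPM with EKO exosomes, 35.7 ± 6.18 CPM with WT exosomes and 26.9 ± 1.77 CPM with PBS (log2 fold change 0.36 with EKO exosomes, adjusted p = 0.029, and 0.41 with WT exosomes, adjusted p = 0.0114). Adam10, the protease that makes the first ligand-induced cut in NOTCH receptors, fell with EKO exosomes, with 279 ± 4.53 CPM against 307 ± 5.74 CPM with PBS (-0.14, adjusted p = 0.0316), and had 283 ± 17.4 CPM with WT exosomes (-0.12, adjusted p = 0.0881). Adam17, a related protease, had -0.12 with EKO exosomes (adjusted p = 0.0639) and -0.12 with WT exosomes (adjusted p = 0.0654). Psen2, a catalytic subunit of gamma-secretase, rose with WT exosomes (0.15, adjusted p = 0.0457) and had 0.084 with EKO exosomes (adjusted p = 0.444). The calls of Fbxw7, Adam10 and Psen2 each ended without at least 1 library, with adjusted p up to 0.211 for Fbxw7, 0.183 for Adam10 and 0.297 for Psen2.

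Of the 20 genes of SMAD signalling, 2 fell with EKO exosomes and 1 with WT exosomes, and none rose. These are 10% and 5% of the list, beside 4.23% and 4.11% of all genes. Skil, a corepressor that binds SMAD proteins, had 223 ± 2.53 CPM with EKO exosomes, 211 ± 13.7 CPM with WT exosomes and 251 ± 7.86 CPM with PBS (log2 fold change -0.17 with EKO exosomes and -0.25 with WT exosomes; adjusted p = 0.0100 with EKO exosomes and 0.000158 with WT exosomes). Its call with WT exosomes held in all 13 alternatives, and that with EKO exosomes ended without EKO replicate 2 or PBS replicate 1 (adjusted p up to 0.0800). Id3, an inhibitor of helix-loop-helix factors and a target of BMP signalling, had 86.4 ± 2.90 CPM with EKO exosomes, 95.7 ± 1.31 CPM with WT exosomes and 102 ± 8.71 CPM with PBS and fell with EKO exosomes (-0.24, adjusted p = 0.0095), a call that ended without EKO replicate 1 or PBS replicate 3 (adjusted p up to 0.147). Tgfbr2, the type II TGF-beta receptor, was not called, at 0.012 with EKO exosomes and 0.088 with WT exosomes, nor was Smad3, a receptor-activated SMAD, at -0.29 with EKO exosomes and -0.18 with WT exosomes.

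Of the 12 genes of SIAH ligases and the hypoxia response, 1 fell with EKO exosomes and 2 with WT exosomes. The shares were 8.33% and 16.7%, beside 4.23% and 4.11% of all genes. Vegfa, an angiogenic factor that hypoxia induces, had 158 ± 1.27 CPM with EKO exosomes, 158 ± 3.42 CPM with WT exosomes and 176 ± 7.26 CPM with PBS (-0.15 with EKO exosomes, adjusted p = 0.0384, and -0.15 with WT exosomes, adjusted p = 0.0372). Hif1a, the hypoxia factor, had 115 ± 5.90 CPM with EKO exosomes, 111 ± 4.27 CPM with WT exosomes and 128 ± 13.5 CPM with PBS, and fell with WT exosomes (-0.21, adjusted p = 0.0296). These calls ended in 6 or 7 of 13 alternatives, with adjusted p up to 0.163 for Vegfa and 0.353 for Hif1a. Egln1, an oxygen sensor, was not called, at -0.0052 with EKO exosomes and -0.12 with WT exosomes, nor was Bnip3, a mitochondrial hypoxia target, at -0.22 with EKO exosomes and 0.12 with WT exosomes.

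In the IRF family, 3 of the 7 other members tested fell with EKO exosomes and 1 with WT exosomes. The shares were 42.9% and 14.3%, beside 4.23% and 4.11% of all genes. Irf7, a driver of interferon genes, had 36.7 ± 7.39 CPM with EKO exosomes, 52.0 ± 4.74 CPM with WT exosomes and 55.1 ± 7.17 CPM with PBS (log2 fold change with EKO exosomes -0.58 ± 0.11, adjusted p = 0.0021), a call that held in all 13 alternatives. Irf1 and Irf9, which act in interferon responses, fell with EKO exosomes (-0.28 for Irf1, adjusted p = 0.00996, and -0.23 for Irf9, adjusted p = 0.0289), with calls that ended without at least 1 library (adjusted p up to 0.0727 and 0.211). Irf2 fell with WT exosomes (-0.19, adjusted p = 0.0287, up to 0.177 over the alternatives). Irf7 was also the only one of the 117 pathway genes called between EKO and WT exosomes (-0.50 ± 0.11, adjusted p = 0.0393). That is 0.855% of them, beside 0.695% of all genes. At an unadjusted p under 0.05 the count was 13, where 8.15% of all genes passed, and DESeq2 and limma-voom called 2 each. The Irf7 call between the exosomes ended in 6 of 13 alternatives, with adjusted p up to 0.344.

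The machinery of microRNAs was measured as well. Of its 13 genes, 1 passed, Ago2, the gene of an Argonaute protein, and it was higher with both kinds of exosome. The share was 7.69% with either kind, beside 4.23% of all genes with EKO exosomes and 4.11% with WT exosomes. The other Argonaute genes in the list were not called. Ago2 had 243 ± 1.57 CPM with EKO exosomes, 244 ± 10.8 CPM with WT exosomes and 219 ± 5.39 CPM with PBS (log2 fold change 0.15 with EKO exosomes, adjusted p = 0.0154, and 0.16 with WT exosomes, adjusted p = 0.0136). The calls ended without at least 1 library in both comparisons, with adjusted p up to 0.0822 with EKO exosomes and 0.119 with WT exosomes. Dicer1, which cuts the precursors, had 0.14 with EKO exosomes (adjusted p = 0.184) and 0.11 with WT exosomes (adjusted p = 0.346), and Tnrc6a and Tnrc6b, partners of Argonaute in silencing, had -0.083 each with EKO exosomes and -0.14 and -0.13 with WT exosomes, not called.

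Among 7 further genes reported as targets of miR-146a, 6 were tested and none passed edgeR's test in either comparison with PBS, where 2 with EKO exosomes and 1 with WT exosomes had an unadjusted p under 0.05. Over all genes, 13.1% and 14% had such an unadjusted p. With EKO exosomes, DESeq2 and limma-voom called 1 each. So did edgeR with RLE scaling, with either other filter on low counts or with a replicate block. With WT exosomes, DESeq2 and limma-voom called none. Relb, an NF-kB subunit, had -0.29 with EKO exosomes (adjusted p = 0.0965), Fas, a death receptor, 0.55 (adjusted p = 0.432) and Tlr4, the receptor of endotoxin, 0.085 (adjusted p = 0.53).

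**Figure D5:**
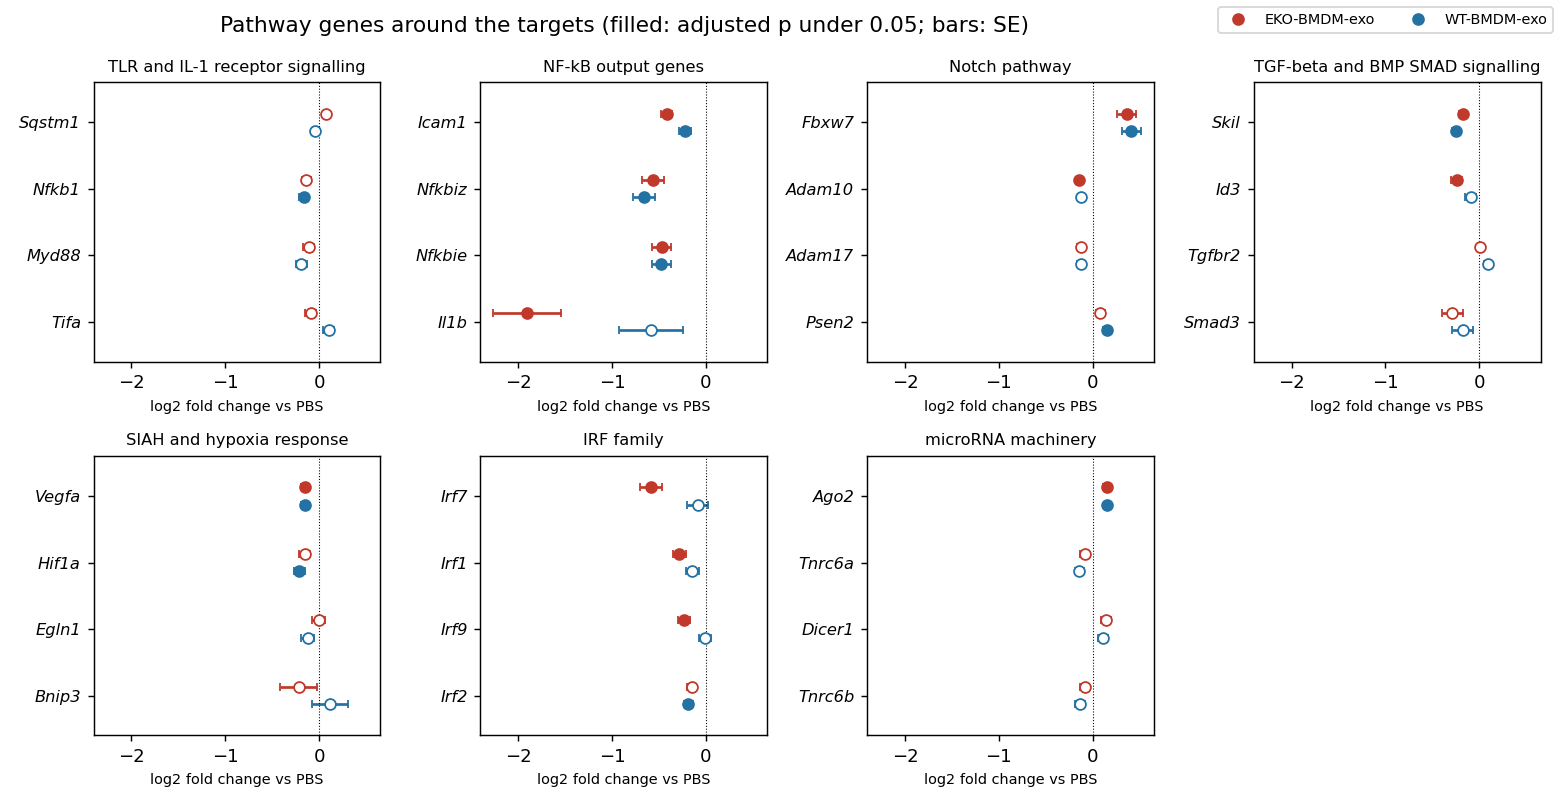
Log2 fold change against PBS of the 4 genes with the lowest F test p in each of 7 pathway lists, for EKO and WT exosomes. Bars are SE and filled points have an adjusted p under 0.05. Il1b lies farthest from 0, at -1.91 with EKO exosomes. In the panel of Toll-like and interleukin-1 receptor signalling, Nfkb1 is filled for WT exosomes, at -0.17.

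The 8 genes varied in both directions relative to each other. Over the 9 libraries, the Pearson correlation of log2 CPM between members ran from -0.69 for Numb and Irf5 to 0.74 for Notch1 and Irf5 over 28 pairs, with a median of 0.072. The libraries share the group differences described above, so these values describe the table. The tested genes whose levels were most like those of Notch1 over the 9 libraries were Arhgef10l (r = 0.966), Gm29438 (r = 0.96) and Nlrp3 (r = 0.958). Arhgef10l had 68.7 ± 3.58 CPM with EKO exosomes, 71.3 ± 3.12 CPM with WT exosomes and 83.7 ± 0.922 CPM with PBS. Nlrp3, the sensor of an inflammasome, had 60.2 ± 4.0 CPM with EKO exosomes, 64.7 ± 3.11 CPM with WT exosomes and 76.2 ± 0.404 CPM with PBS. Gm29438, a predicted gene, had 0.871 CPM with EKO exosomes, 1.05 CPM with WT exosomes and 1.43 CPM with PBS and is close to the limit of detection.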

How the data were processed

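The authors deposited raw counts per Ensembl gene for 9 BMDM libraries. Per the labels' protocols an mRNA library kit was used. The submitters' processing notes name STAR 2.7.5c and GRCm38. Annotation release, strandedness of counting and trimming: not given in the sources used here. Of 55536 IDs, 55450 matched a symbol in GENCODE M21 and 86 did not.

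From these counts, edgeR 4.0.16 in R 4.3.3 was run on all 9 libraries with filterByExpr (minimum count 10, 13815 genes), TMM factors (0.995 to 1.01) and a robust quasi-likelihood model of the group. The biological coefficient of variation was 12.0%. P-values were adjusted by Benjamini-Hochberg over all genes, with a threshold of 0.05. "Adjusted p" means this value, or that of the alternative fit where an alternative is named. SE was derived from the F statistic. Intervals are for each gene alone and are not adjusted. With 3 libraries against 3, the smallest p of an exact permutation test is 0.1, so that test was not used. Every pair of libraries differed by more than counting noise. DESeq2 1.42.0, limma 3.58.1, other filters and scalings, a replicate block and leaving out each library were tried. The steps were tested on simulated data. The members and lists were chosen with earlier results of these data known. Besides the 8 genes, the text names up to 4 genes per list by the F test, Apoe, and the 3 genes most like Notch1. Of these, 1 gene is not reported here. Bcl3, Nfkbia and Tnpo3 were named after their values were seen. Sequences are from RefSeq (GRCm38.p6) and GENCODE M21.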

Additional observations from a re-analysis of the deposited data

Results flagged for a closer look

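Irf7 was called between the exosomes of ApoE-deficient and wild-type donors, where 0.695% of all genes were called. Its log2 fold change of EKO against WT exosomes was -0.50 (edgeR adjusted p = 0.0393), with 36.7 ± 7.39 CPM with EKO exosomes and 52.0 ± 4.74 CPM with WT exosomes (SD, n = 3 each). The call ended in 6 of 13 alternatives, with adjusted p up to 0.344.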

How the results depend on the processing

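Of 432 values of the 8 genes under the alternatives, 400 kept their direction and their side of the threshold, 6 lost the threshold, 6 gained it and 20 changed sign, all of these uncalled. Without 1 library, Traf6 ran from -0.031 to 0.065 (EKO exosomes against PBS), from -0.085 to 0.011 (WT exosomes against PBS) and from -0.058 to 0.038 (pooled). Irak2 ran from -0.028 to 0.081 (EKO against WT exosomes) and from -0.11 to 0.00068 (WT exosomes against PBS). Numb ran from -0.023 to 0.055 and Irf5 from -0.011 to 0.0092 (EKO against WT exosomes), and Smad4 from -0.10 to 0.041 (WT exosomes against PBS). Irf5 between the exosomes was -0.00079 with RLE factors, -0.00029 with limma-voom and -0.00093 with DESeq2.

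The number of the 8 genes called was 0 to 1 without 1 library in each comparison with PBS, and 1 to 1 for the pooled groups, where Irf5 joined Notch1 for a count of 2 with RLE factors (adjusted p = 0.049), a mean of at least 1 CPM (0.0345), a replicate block (0.0378), limma-voom (0.0372) and DESeq2 (0.0133). DESeq2 also called 2 with WT exosomes, Irf5 at 0.0465. The replicate block also called more of all genes for the pooled groups, as given below. The counts of 2 were not set against the shares of all genes called under the same settings. Over all genes, leaving out 1 library gave 421 to 509 calls for EKO exosomes (585 with all), 408 to 536 for WT exosomes (568 with all), 52 to 101 between the exosomes (96 with all), 479 to 689 pooled (733 with all) and 538 to 708 by the F test (730 with all). DESeq2 gave 157 between the exosomes. For the pooled groups, a fit to the compared libraries only is the same fit.

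Same-numbered libraries were no more alike than others in their deviations from the group means. Their correlations were -0.035 to 0.04 (9 pairs), and those of others -0.048 to 0.039 (18 pairs). This does not settle whether the libraries were paired. With the replicate block, 662, 669, 144 and 796 genes were called for EKO exosomes, WT exosomes, between them and pooled. Without it the counts were 585, 568, 96 and 733.

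Alternatives for the pathway genes were chosen after seeing the data. The SE of Siah2, 0.20, is close to the size of the Notch1 difference, and how much of it comes from depth was not tested.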
